A study of Mus musculus with 6 samples.

Results

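The genes of the HIN-200 family, also called PYHIN genes, were compared between BRAF KE–transfected and nontransfected mouse astrocytes. They were chosen by name: 9 symbols (Aim2, Ifi203, Ifi204, Ifi205, Ifi207, Ifi209, Ifi211, Mnda and Mndal) were looked up among the 55357 genes of the expression table, and 8 were found. No entry of the table is named Mnda, which RefSeq gives as a synonym of Ifi211. All 8 genes passed the filter on low values, a mean normalized count of at least 10 over the 6 cultures, as did 15280 genes of the whole table.

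Astrocytes were cultured from the cortex of C57BL/6 mouse embryos, and total RNA was taken 48 hours after transfection with a plasmid that expresses FLAG-tagged BRAF K499E (KE) under the CMV promoter in 3 cultures (KE). The 3 control cultures, labelled naive in genotype, received no plasmid (NT), and neither empty-plasmid nor BRAF WT cultures are analysed here, so the effects of the plasmid and of BRAF KE cannot be told apart. The labels do not say whether the 3 cultures of a group came from separate dissections, so the p-values measure the spread between these cultures only. Gene counts after division by DESeq2 size factors, here called normalized counts, were deposited for each culture.

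HIN-200 proteins combine a pyrin domain, which binds other pyrin domains, with 1 or more HIN domains, which bind double-stranded DNA. In the mouse their genes lie side by side in a cluster on chromosome 1, and many are induced by interferons, the secreted proteins that switch on antiviral genes. Aim2 is a sensor of DNA in the cytosol that recruits the adaptor Pycard (ASC) and caspase-1 to form an inflammasome, whereas Ifi204 is the mouse counterpart most often compared with human IFI16, a sensor linked to STING and interferon beta. Myeloid cells such as microglia are a known site of expression of several of these genes.

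The family did not move as one. Ifi204, Ifi211 and Ifi205 were each between 3.74 and 4.83 times as high in KE as in NT, Mndal and Ifi203 rose by less, Ifi209 and Aim2 fell, and Ifi207 did not pass the test. In the limma comparison of log2(normalized count + 1), with Benjamini-Hochberg adjustment over all 15280 tested genes, 5 of the 8 genes were upregulated and 2 downregulated at an adjusted p-value under 0.05. Of all tested genes, 25.3% were upregulated and 26.0% downregulated, 51.3% in all. The median log2FC of the 8 genes was 0.74, beside 0.0018 over all tested genes, and the range was -2.76 to 2.29. The 3 KE values all lay above the 3 NT values in 5 of the 8 genes and all below them in 2, while 30.1% and 29.9% of all tested genes showed these patterns, 59.9% in all. By size, 3 genes were upregulated with a log2FC of at least 1 (4.74% of all tested genes), 2 of them with at least 2 (1.33%), and 1 was downregulated with a log2FC of at most -2, which also counts toward at most -1 (2.72% and 5.69%).

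**Figure D1:**
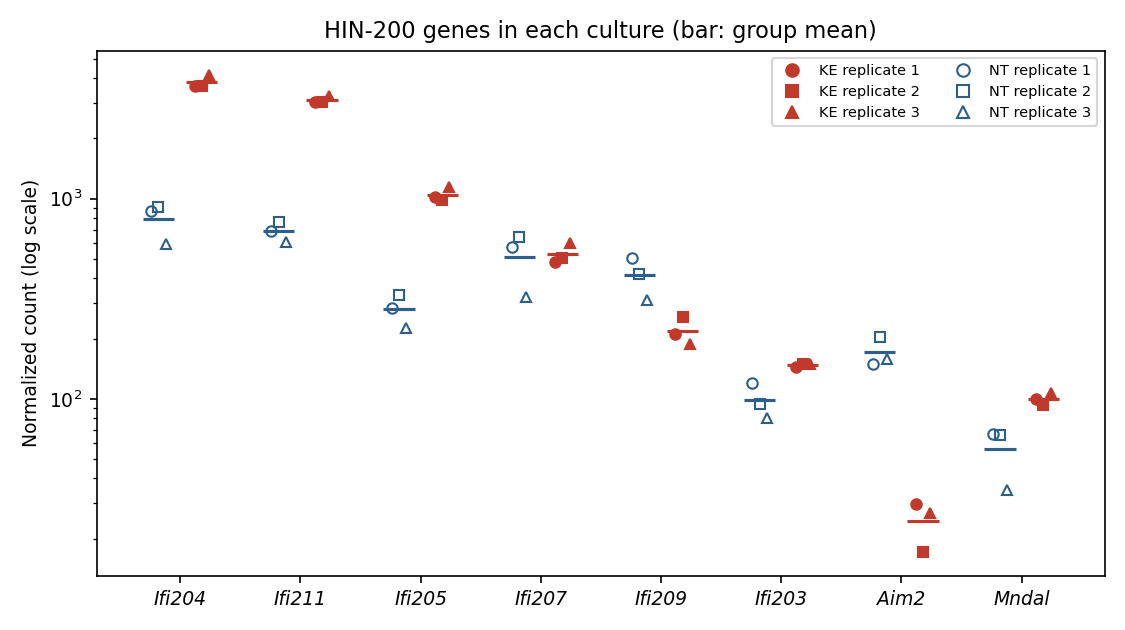
Normalized count (log axis) of each of the 8 HIN-200 genes in each culture, with KE in filled red symbols, NT in open blue symbols, 1 symbol shape per replicate number and a bar at each group mean. Ifi204, Ifi211 and Ifi205 are far higher in KE, Ifi209 and Aim2 are lower, and NT replicate 3 is the lowest NT culture for every gene but Aim2.

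Ifi204 (ENSMUSG00000073489), on the minus strand at GRCm39 chr1:173574859-173594610, had the highest log2FC of the 8, close to that of Ifi211. The KE cultures held 3633, 3628 and 4158 normalized counts of it, against 866, 903 and 593 in NT. The lowest KE culture was thus far above the highest NT culture, and the spread between cultures was small beside the gap. The group means were 3807 ± 304 for KE and 787 ± 169 for NT (SD, n = 3 each), a ratio of 4.83 and a log2FC of 2.29 ± 0.14 (SE, limma adjusted p = 2.0e-07). Only 143 tested genes were ranked above it by log2FC. Its product p204 binds DNA.

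Ifi211 (ENSMUSG00000026536; minus strand, GRCm39 chr1:173723911-173740612), the locus to which RefSeq assigns the name Mnda, rose by a like amount, and without NT replicate 3 its log2FC and that of Ifi204 were 2.11 and 2.10. Its normalized counts were 3047, 3049 and 3248 in KE and 685, 762 and 609 in NT. The groups were far apart, and the KE cultures hardly differed from each other, with a coefficient of variation of 3.71%. The means of 3115 ± 116 (SD, n = 3) and 686 ± 76.5 (SD, n = 3) gave a ratio of 4.54 and a log2FC of 2.19 ± 0.08 (SE, limma adjusted p = 1.3e-08), the smallest adjusted p-value of the family.

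Ifi205 (ENSMUSG00000054203; minus strand, GRCm39 chr1:173839549-173859456) stands at the far end of the cluster, and its protein p205 has been linked to expression of Pycard. It was measured at 1015, 983 and 1138 normalized counts in KE and at 284, 329 and 226 in NT. Every KE culture was above every NT culture. The means were 1045 ± 82.0 and 279 ± 51.6 (SD, n = 3 each), a ratio of 3.74 and a log2FC of 1.91 ± 0.13 (SE, limma adjusted p = 5.1e-07).

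Mndal and Ifi203 rose by less. Mndal (ENSMUSG00000090272; minus strand, GRCm39 chr1:173676539-173708447), named for its likeness to the myeloid nuclear differentiation antigen, had 100, 93.4 and 107 normalized counts in KE and 66.5, 66.1 and 35.1 in NT. The groups did not overlap, and NT replicate 3 stood well below the others. The log2FC was 0.89 ± 0.25 (SE, limma adjusted p = 0.011), and 0.59 without NT replicate 3, with an adjusted p of 0.022 in the same test. Ifi203 (ENSMUSG00000039997; minus strand, GRCm39 chr1:173747971-173770436) was at 145, 149 and 149 in KE and at 121, 94.5 and 80.1 in NT. Its KE cultures were nearly equal and all above the highest NT culture. The log2FC was 0.60 ± 0.17 (SE, limma adjusted p = 0.012).

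Ifi207 (ENSMUSG00000073490; minus strand, GRCm39 chr1:173550990-173569383), which lies directly beside Ifi204 on the same strand, did not pass the test. Its normalized counts were 480, 503 and 602 in KE and 574, 639 and 324 in NT. The 2 groups overlapped, with the lowest and the highest value both in NT. The log2FC was 0.10 with a 95% interval from -0.36 to 0.56 (adjusted p = 0.73 from limma), which leaves room for a small change in either direction and lies below the intervals of Ifi204, Ifi211 and Ifi205. Without NT replicate 3 the log2FC was -0.20 (adjusted p = 0.18). The ratio of Ifi207 to Ifi204 was 0.132, 0.139 and 0.145 in KE, against 0.663, 0.707 and 0.547 in NT, so the 3 KE ratios all lay below the 3 NT ratios.

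Aim2 (ENSMUSG00000037860), on the plus strand at GRCm39 chr1:173178445-173293930, was the member that fell most. Its normalized counts were 29.7, 17.2 and 27.0 in KE and 149, 204 and 157 in NT. Every KE culture was far below every NT culture. The means were 24.6 ± 6.58 and 170 ± 29.6 (SD, n = 3 each), so that the NT mean was 6.91 times the KE mean, and the log2FC was -2.76 ± 0.24 (SE, limma adjusted p = 3.3e-06). Only 296 genes had a lower log2FC. At the KE level a culture gives few reads, and KE replicate 2, the lowest of the 3, was also the least deeply sequenced, at approximately 24.5 M reads beside 29.5 to 34.1 M in the other cultures. Its part in the result was not tested, and the log2FC was -2.53 with KE replicate 2 left out.

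Ifi209 (ENSMUSG00000043263; plus strand, GRCm39 chr1:173458380-173475494), formerly called Pyhin1, was the other downregulated member. It was measured at 211, 257 and 187 normalized counts in KE and at 507, 419 and 312 in NT. The groups did not overlap. The means were 218 ± 35.4 and 413 ± 97.5 (SD, n = 3 each), an NT mean 1.89 times the KE mean, and the log2FC was -0.90 ± 0.17 (SE, limma adjusted p = 0.0013). Both members that fell are on the plus strand and the other 6 are on the minus strand.

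**Figure D2:**
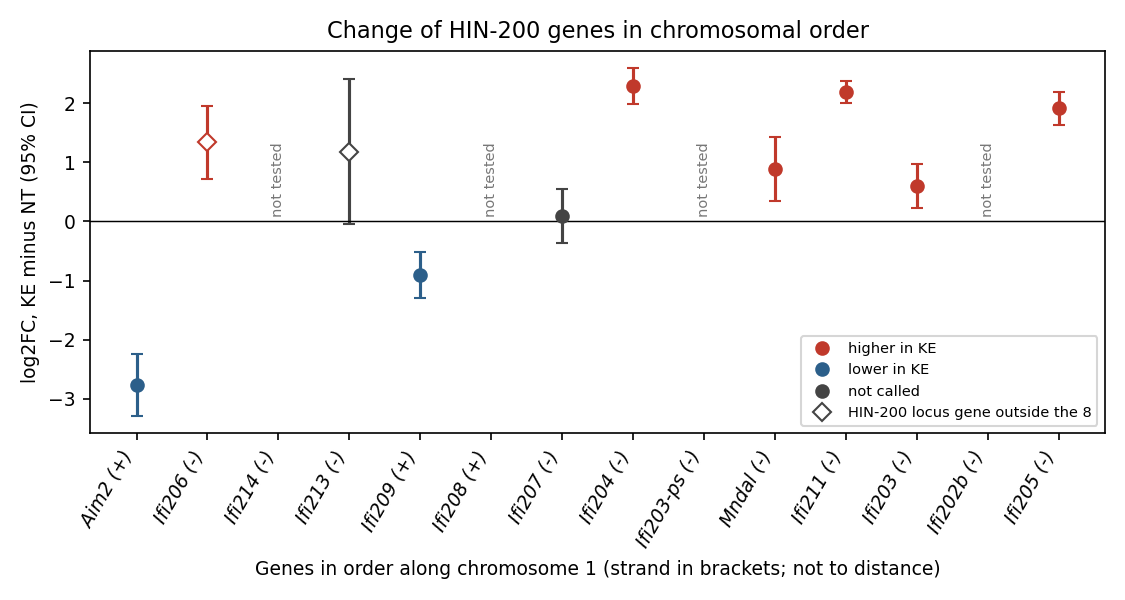
log2FC of KE minus NT with its 95% confidence interval from limma, for the 8 HIN-200 genes (circles) and the other HIN-200 locus genes (open diamonds, or marked as not tested), in their order along chromosome 1. Aim2 and Ifi209 lie below 0, Ifi207 spans 0, and Ifi204, Mndal, Ifi211, Ifi203 and Ifi205 lie above 0.

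The cluster holds other HIN-200 genes that are not among the 8. Of 6 such genes in the table, only Ifi206 and Ifi213 reached a mean of 10. Ifi206, which lies next to Aim2, had 226, 270 and 279 normalized counts in KE and 133, 136 and 56.9 in NT, and was upregulated with a log2FC of 1.34 ± 0.28 (SE, limma adjusted p = 0.0022). Ifi213 had 97.8, 92.1 and 127 in KE and 82.0, 84.8 and 13.2 in NT. The groups did not overlap, NT replicate 3 was far below the other NT cultures, and the gene did not pass the test (log2FC 1.18, 95% interval from -0.04 to 2.40, limma adjusted p = 0.097). Its log2FC was 0.32 without NT replicate 3 (limma adjusted p = 0.20), against 1.60 and 1.62 without NT replicate 1 and NT replicate 2 (limma adjusted p = 0.047 and 0.035), so the size of the difference rests on NT replicate 3. Ifi202b, a family member that lacks the pyrin domain and is known to oppose Aim2, was at most 1.81 in KE, and the 3 NT cultures list it at 0. Ifi208, Ifi214 and the pseudogene Ifi203-ps were at 5.94 or less in each culture.

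These genes arose by duplication, and a read can match more than one of them. As a measure of this, the distinct words of 31 bases in the Gencode transcripts of each gene were searched in the transcripts of every other gene. The share found elsewhere was 75.2% for Ifi211, 47.5% for Ifi209, 34.2% for Ifi204, 30.8% for Mndal, 25% for Ifi203, 22.6% for Ifi205, 15.4% for Ifi207 and 3.07% for Aim2. Ifi211 shared 46.5% of its words with Ifi205 and 37.2% with Ifi204, so the division of reads among these 3 upregulated genes is uncertain, and so is that of the low gene Mndal, which shares 10.3% of its words with Ifi211. Ifi209 shared 47.1% with Ifi214, which was at most 5.59 normalized counts in every culture. Aim2 shared no word with any other HIN-200 gene. Ifi206, Ifi208 and Ifi213 shared words only with each other. None of the 5 genes from Ifi206 to Ifi208 shared more than 3 words with any of the 7 from Ifi207 to Ifi205 (leaving out Ifi202b).

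**Figure D3:**
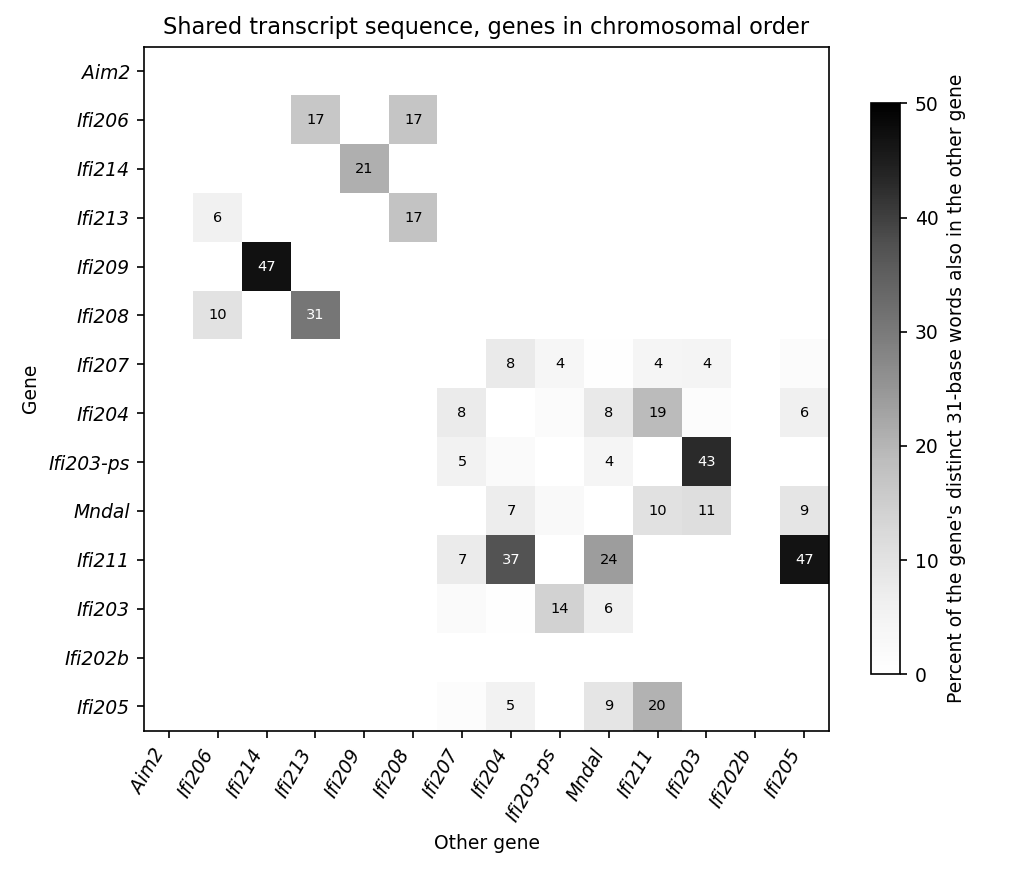
Percent of the distinct 31-base words in the transcripts of the gene in each row that also occur in the gene of each column, for 14 HIN-200 locus genes in chromosomal order. The 3 sets Ifi206, Ifi208 and Ifi213, then Ifi209 and Ifi214, and then the 7 genes from Ifi207 to Ifi205 without Ifi202b stand apart, and Aim2 and Ifi202b share no word with the others.

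Because reads may be divided among the members, their normalized counts were also summed. The sum of the 8 genes was 8662, 8679 and 9617 in KE and 3253, 3417 and 2337 in NT, with means of 8986 ± 546 and 3002 ± 582 (SD, n = 3 each) and a ratio of 2.99. Ifi204, Ifi205 and Ifi211 together were at 7967 ± 500 in KE and 1752 ± 292 in NT (SD, n = 3 each), a ratio of 4.55 that does not depend on how reads were divided among those 3. The other 5 genes summed to 1019 ± 53.3 in KE and 1250 ± 295 in NT (SD, n = 3 each), and their ranges overlapped. The composition of the family total therefore differed between the groups. Ifi204, Ifi205 and Ifi211 made up 88.7% ± 0.338 of it in KE and 58.6% ± 2.35 in NT (SD, n = 3 each), Ifi209 fell from 13.7% ± 1.70 in NT to 2.45% ± 0.507 in KE, and Aim2 from 5.77% ± 1.09 to 0.274% ± 0.0727. The share of Ifi207 was 16.7% ± 2.54 in NT and 5.86% ± 0.366 in KE although its own level did not pass the test.

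**Figure D4:**
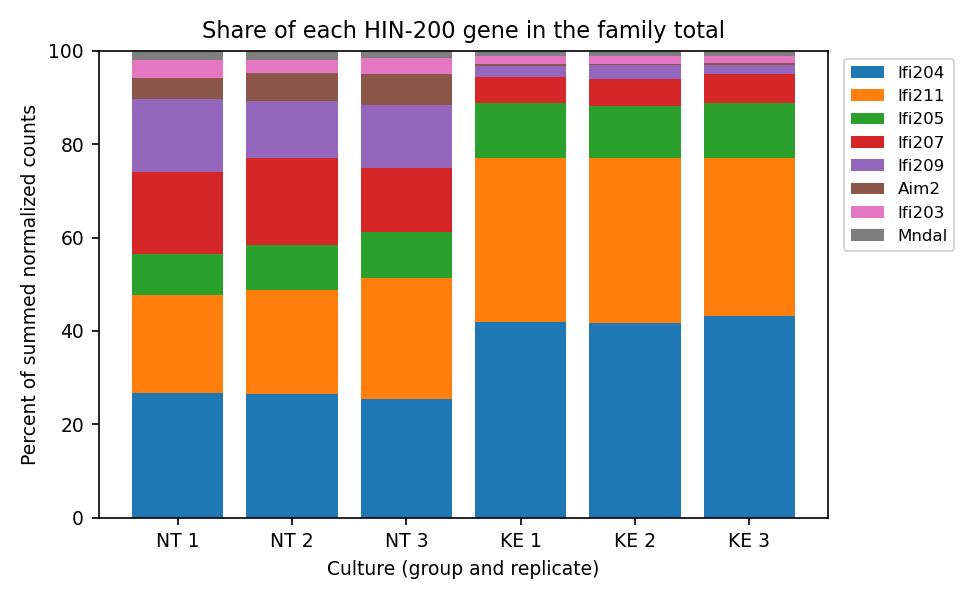
Share of each of the 8 HIN-200 genes in the family's summed normalized counts, in percent, for each culture. Ifi204, Ifi211 and Ifi205 fill 88.3% to 88.8% of the bar in the KE cultures and 56.4% to 61.1% in the NT cultures.

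The order of the genes by level was taken after division by length. Per kilobase of annotated exon (all exons of the gene merged, which can include exons not used in these cells), the order in NT was Ifi211 with a mean of 365, Ifi204 with 215, Ifi207 with 140, Ifi209 with 113, Ifi205 with 65.4, Aim2 with 25.9, Mndal with 13.6 and Ifi203 with 13 normalized counts per kilobase. The NT ranges of Ifi204 and Ifi207, of Ifi207 and Ifi209, and of Mndal and Ifi203 overlapped, but within each NT culture Ifi204 was above Ifi207 and Ifi207 above Ifi209. In KE the order was Ifi211 (1659), Ifi204 (1039), Ifi205 (245), Ifi207 (145), Ifi209 (59.8), Mndal (24.5), Ifi203 (19.5) and Aim2 (3.75), and no neighbours in that order overlapped. Aim2 was thus last in KE but above Mndal and Ifi203 in NT, and Ifi205 was above Ifi207 and Ifi209 in KE but below them in NT.

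The promoters of the genes were read from RefSeq, which on GRCm38.p6 gives 250 bases before and 50 after the start of 7 of the 8 genes. Each was searched on both strands for GAAA followed after any 2 bases by GAAA, the core of the interferon-stimulated response element (ISRE) bound by interferon regulatory factors, and for TTCNNNGAA, the gamma-activated site of interferon gamma responses. The ISRE letters were found in a promoter of 5 of the 7 genes, while 3.99% of all 27025 genes in the RefSeq table hold them. They were present in all 4 upregulated genes with an entry (Ifi203, Ifi205, Ifi211 and Mndal) and in Ifi207, which did not pass the test. They were in neither Aim2 nor Ifi209. Mndal and Ifi203, unlike Aim2 and Ifi209, had a further promoter entry, and that of Ifi203 lacked the letters. Aim2 has 12 Gencode transcripts, and starts outside its entry were not searched. The ISRE letters were also in promoters of Ifi206, Ifi208, Ifi213 and Ifi214. The TTCNNNGAA letters were in none of the 7, beside 9.55% of all genes. These matches describe the letters of this window and were not tested for binding.

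Each stretch below holds 60 bases around the ISRE letters, which are in capitals, and is written 5′ to 3′ along the strand of the gene. They are shown because the same element recurs before the start of genes with different responses. The match began 37 bases before the start in Ifi211 (minus strand, GRCm38.p6 chr1:173913049-173913108), 134 in Ifi205 (minus strand, GRCm38.p6 chr1:174031855-174031914), 36 in Mndal (minus strand, GRCm38.p6 chr1:173880189-173880248) and 35 in Ifi203 (minus strand, GRCm38.p6 chr1:173942493-173942552), all upregulated, and 41 in Ifi207 (minus strand, GRCm38.p6 chr1:173741816-173741875).
Ifi211: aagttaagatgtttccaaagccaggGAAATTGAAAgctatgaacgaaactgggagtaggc
Ifi205: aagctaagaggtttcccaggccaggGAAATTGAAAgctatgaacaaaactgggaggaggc
Ifi207: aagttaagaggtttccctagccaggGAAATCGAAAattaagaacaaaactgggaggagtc
Mndal: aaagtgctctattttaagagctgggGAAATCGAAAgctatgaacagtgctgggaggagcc
Ifi203: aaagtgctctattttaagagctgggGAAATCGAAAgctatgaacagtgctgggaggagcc

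The stretches of Mndal and Ifi203 were identical, and those of Ifi211 and Ifi205 differed at 6 of 60 bases. Ifi207 differed from Ifi205 at 8 and from Ifi211 at 10 bases, and its transcript did not pass the test. Of 4 places in Ifi209 with 1 mismatch, one lies 79 bases before the start (plus strand, GRCm38.p6 chr1:173630755-173630814), and the letters there carry the substitution G1T, counted from 1 at the 5′ end of the motif.
Ifi209: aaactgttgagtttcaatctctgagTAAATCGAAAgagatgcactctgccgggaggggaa
With 1 mismatch allowed, 31.4% of all promoters in the table hold such letters in their 250 upstream bases, Aim2 among them, so a near match is common.

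Interferon signalling genes were compared beside the family, since many HIN-200 genes respond to interferon. Of 24 genes listed for the type I interferon pathway, 21 were upregulated and 2 downregulated, with a median log2FC of 2.09. Ifnb1, which encodes interferon beta, reached 233, 198 and 235 normalized counts in KE, whereas every NT culture lists it at 0. Stat2 and Irf9, which act together in the response to type I interferon, had log2FC of 1.68 and 0.87, and Irf7, an inducer of further interferon, 3.81. The 3 HIN-200 genes with the largest rises were near the median of this list, and each of Mndal, Ifi203 and Ifi207 was below it.

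The genes around Aim2 in its pathway were divided. Of 15 tested inflammasome genes, 3 were upregulated, 8 downregulated and 4 not called, with a median log2FC of -1.49. Casp1, the protease that the Aim2 inflammasome activates, rose from 701 ± 94.9 in NT to 1448 ± 35 in KE (SD, n = 3 each), a log2FC of 1.05, and Casp4 had a log2FC of 1.38. Nek7 (-0.17) and Ninj1 (0.16) did not pass the test. Outside the rule for named genes and after their values were seen, Pycard, the adaptor that joins Aim2 to caspase-1, was singled out. It was at 108, 139 and 88.8 in KE and at 471, 423 and 334 in NT, a fall with a log2FC of -1.87 (adjusted p = 7.4e-06 from limma). Nlrp3 and Il1b, chosen in the same way, had log2FC of -3.66 and -2.37, whereas Il18, another cytokine that caspase-1 processes, rose with a log2FC of 0.75. Among 19 genes of cytosolic DNA sensing, 3 were upregulated, 7 downregulated and 9 not called, with a median log2FC of -0.22. Beside both lists, 25.3% of all tested genes were upregulated and 26.0% downregulated, 51.3% in all. The 4 with the highest counts were Hmgb1 (log2FC -0.92), Dhx9 (-0.54), Lrrfip1 (-0.12, not called) and Ifi35 (1.81). Sting1, which encodes STING and is also named outside the rule, fell with a log2FC of -0.92 (limma adjusted p = 3.3e-05). Cgas (-0.22) and Tbk1 (0.07), named in the same way, were not called.

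Markers of microglia and macrophages moved with the fall of Aim2 and Ifi209, and with that of Pycard, Nlrp3, Il1b and the median of the inflammasome list. All 20 of 20 listed markers were downregulated in KE, with a median log2FC of -3.35, and their summed normalized counts were 7333 to 10248 in KE and 63881 to 80194 in NT. None of the 20 was near 0 in NT. Adgre1, C1qa and Itgam, among those with the highest counts, had log2FC of -4.01, -3.12 and -4.07. In such bulk cultures fewer cells of a type and less RNA per cell cannot be told apart. Set against the summed markers, Aim2 was at 4.06, 1.68 and 3.65 per 1000 marker counts in KE and at 1.90, 2.55 and 2.46 in NT, so the ranges overlapped. Ifi209 was at 25 to 28.8 per 1000 marker counts in KE and at 4.89 to 6.44 in NT, and Ifi204 at 354 to 562 and 9.28 to 11.3, without overlap in either gene. The part of these cells in the result was not tested.

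Other cell types gave no shift of this size. Of 10 astrocyte markers 7 were upregulated and 1 downregulated, with a median log2FC of 0.40, and those with the highest counts, Slc1a3, Glul, Gfap and Aldh1l1, had log2FC of 0.25, 0.38, 0.87 and 0.72, so the labelled cell type was present in both groups. Most lymphocyte and dendritic cell markers were near 0. Of 12 listed, 7 had a mean under 1 normalized count, with Cd3e, Cd8a, Nkg7, Ncr1 and Siglech listed at 0 in all 6 cultures, and only Zbtb46 was tested, with means of 136 in KE and 137 in NT (log2FC -0.004, not called). Itgax, under the filter, was at 1.81, 3.75 and 3.62 in KE and at 13.9, 14.5 and 11.4 in NT, without overlap. Of the 10 tested neuron and oligodendrocyte markers, 1 was upregulated and 7 downregulated, with a median of -0.53, and those with the highest counts were Olig1 (-0.20), Olig2 (-0.55), Map2 (-0.51) and Pdgfra (-0.87). Braf, the transfected gene, was between 34933 and 40978 normalized counts in KE and between 811 and 946 in NT.

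**Figure D5:**
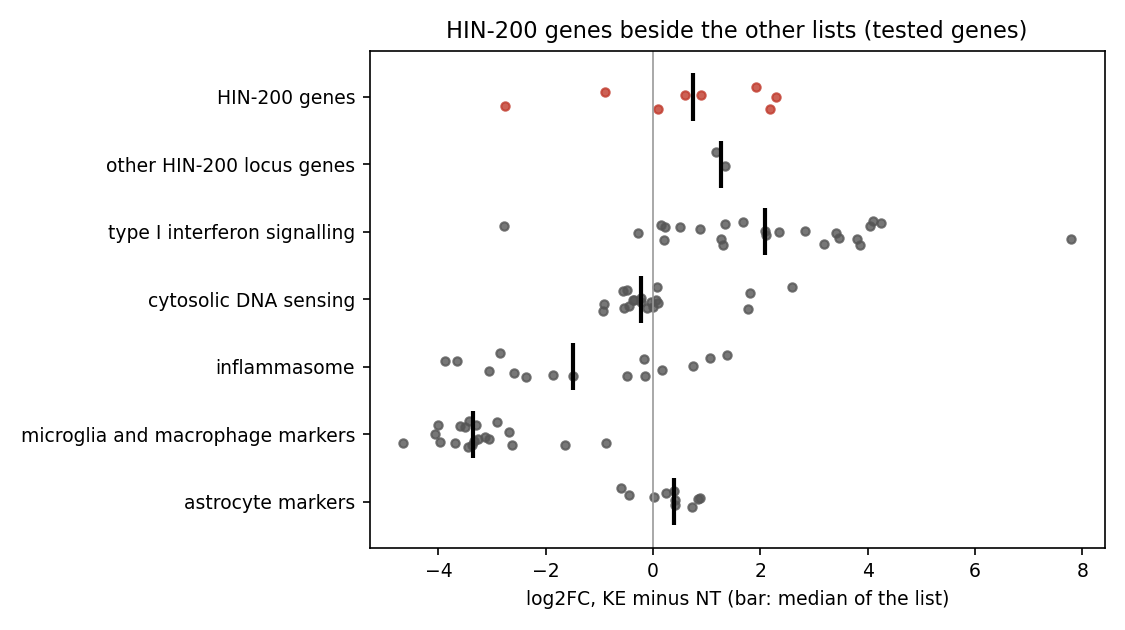
log2FC of KE minus NT for each tested gene of the HIN-200 family and of 6 other lists, 1 point per gene, with a bar at the median. The HIN-200 genes spread from -2.76 to 2.29, while the type I interferon genes centre on 2.09 and the markers of microglia and macrophages on -3.35.

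The cultures of 1 group were not alike in these genes. NT replicate 3 was the lowest NT culture for 7 of the 8 genes and the highest for none, whereas it was the lowest for 32.0% of all tested genes. Its log2 difference from the mean of the other NT cultures was -0.90 for Ifi207, -0.90 for Mndal, -0.58 for Ifi204 and -0.15 for Aim2, beside a median of 0.005 over all tested genes. The interferon list was lower in that culture as well, with a median difference of -0.23, and so was the list of microglia and macrophage markers with -0.24. The inflammasome list stood lower still at -0.33, and the tested other HIN-200 locus genes, Ifi206 and Ifi213, were lowest with a median of -1.90. Astrocyte markers were at 0.09. Among the KE cultures, replicate 3 was the highest for 6 of the 8 genes, beside 32.7% of all tested genes. The calls for all 8 genes were the same with NT replicate 3 left out, where 5 rose and 2 fell.

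The 5 genes other than the 8 with the profile most like the mean standardized profile of the 8, by Pearson's r over the 6 cultures among 12066 genes with a mean of at least 100, were Pgap6 (0.99), Gla (0.99), Sp100 (0.98), Fgl2 (0.98) and Ifi206 (0.98), the last of which belongs to the same cluster. These values are a description, since 6 cultures in 2 groups give high r to many genes, and members that rose and fell enter the same mean profile. Only 27 genes had an r over 0.95 with it.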

How the data were processed

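The authors deposited 1 table with a signal per gene and culture: gene counts divided by DESeq2 size factors. According to the submitters' processing notes, Trim Galore, STAR, Salmon and DESeq2 were used. Those notes name GRCh38 although the gene identifiers are mouse; the methods give GRCm39 with Gencode vM28 for mouse samples, and mention an adjustment for batches without naming them. Salmon divides reads among similar transcripts, which bears on this family. Normalization removes the depth, so no count test was run: between 74.7% and 77.6% of low values came within 0.1 of whole multiples of the most frequent one. Approximate depth is the total divided by that value.

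KE and NT were compared on log2(normalized count + 1) in limma 3.58.1 (R 4.3.3), a two-sided test with a variance trend and no covariate, in genes with a mean of at least 10. On simulated data with 15280 genes, the fit recovered 84% of changes of log2 size 1 and 98% of those of size 2. Each simulated gene was given the typical spread of genes of like level. Every member varied more than that between the NT cultures. The coefficient of variation was 21.5% for Ifi204 and 32.4% for Ifi207, beside medians of 4.85% and 6.88% in genes of like mean. The simulated shares therefore need not hold for this family. Gene positions and transcripts were taken from Gencode vM39 (GRCm39). Members and lists were chosen with earlier results of these data known. Named genes were the members, the other HIN-200 locus genes, the 4 genes of each other list with the highest mean, Ifnb1, Stat2, Irf9, Irf7 and Braf, cell type markers near 0, and the 5 most similar profiles; a few genes under this rule are not reported here. Ifi16, listed for DNA sensing, is a synonym of the member Ifi204 and was left out of that list. Alternatives were other pseudocounts, filters and scalings, limma without the trend, a replicate block, and each culture left out in turn.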

Additional observations from a re-analysis of the deposited data

How the results depend on the processing

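The counts of 5 upregulated and 2 downregulated HIN-200 genes were the same under all 14 alternatives. Of 400 comparisons with an alternative, over the 8 genes, the 8 other lists, all tested genes and the family total, 394 kept their direction and side of the threshold, or stayed within the spread or 1.5 times. Ifi207, not called in any setting, reversed its sign to -0.0016 without KE replicate 3 and to -0.20 without NT replicate 3 (-0.20 to 0.28 over the cultures left out, with adjusted p of 0.18 to 0.996 over all alternatives). The other HIN-200 locus genes called higher went from 1 to 2 without NT replicate 1 or without NT replicate 2 (1 to 2 over the cultures left out), as Ifi213 then passed. With no filter on low genes, 7 lymphocyte and dendritic cell markers were tested rather than 1, and 1 of them was called lower. In limma without the trend 2 neuron and oligodendrocyte markers were called higher. The cause was not tested. With the replicate number as a block, 5 HIN-200 genes were higher and 2 lower, with 3967 and 4079 of all tested genes. Same-numbered KE and NT cultures had r of 0.059 to 0.066 between their deviations across genes, each the highest for its cultures but under 0.1, so the numbers are not shown to pair them. The family ratio ranged from 2.69 to 3.22 with a culture left out.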

Other observations

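Genes beside the HIN-200 cluster were compared by position. Of 47 other genes of the table within 500 kb of the cluster, 39 are listed at 0 in every culture, and only 4 were tested. Among these, Fmn2, a formin, was higher, with a mean of 1638 in KE and 1323 in NT (adjusted p = 0.0039 from limma). Cadm3, whose annotated span overlaps that of Aim2 on the other strand, and Ackr1 were not called, with adjusted p of 0.68 and 0.39.

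The profiles most like Ifi204 and Aim2 alone were looked up after the data were seen. Over the 6 cultures, those nearest to Ifi204 by Pearson's r were Gbp6, Pip5k1a, Dtx3l, Gbp9 and Trim30d, with log2FC of 2.73, 0.60, 1.61, 2.44 and 2.16. Those nearest to Aim2 were Nsg1, Rsbn1l, Nras, Ftsj3 and Nopchap1, with log2FC between -0.51 and -0.34, far smaller than that of Aim2. An r over 0.95 was found for 1286 and 1206 of 12066 genes, so these lists describe a shape over 2 groups of cultures.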
